A study of Arabidopsis thaliana with 12 samples.

Results

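The comparison is between Arabidopsis thaliana plants with a heterozygous T-DNA insertion in the gene DYW2 and plants with a heterozygous one in NUWA, and it asks how much RNA levels varied among plants that kept an intact copy of each gene. Its members are the 3 libraries titled dyw2_HE and the 3 titled nuwa_HE, 6 of the 12 libraries of the series, chosen by title. All 6 are labelled heterozygous, and the genotype field names the same mutant as the title in each. The names of the deposited files call these samples wild type, and no library of plants without an insertion was analysed here, so each group is set only against the other. Flower bud, rosette and stem made up each sample, at Boyes stage 5.10, when the first flower buds are visible. Plants grew in soil at 18 °C by night and 20 °C by day, with 16 h of light and 60% hygrometry. The 3 samples of a group are named biological replicates in the series description, without a statement on single plants or pools. Should they share plants, the p-values below cover only a spread that may be technical. The other 6 libraries, labelled homozygous for the same insertions, are used below to show levels and, in alternative fits over all 4 groups, to estimate the spread.

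DYW2 and NUWA (also called OTP100) encode pentatricopeptide repeat proteins, a large plant family whose members are imported into plastids and mitochondria and bind organelle transcripts. In both organelles, chosen cytidines of the RNA are converted to uridines. The DYW domain at the end of some of these proteins holds the deaminase signature, and DYW2 and NUWA are known to act together with editing factors that lack a complete one. Editing itself is not visible in counts per gene.

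The 6 libraries held 54220595 to 97804029 counts. In the first principal component of log2 CPM (counts scaled to library size with TMM), which took 43.1% of the variance, dyw2 heterozygous replicate 2 stood at 74.91 and the other libraries between -42.38 and 13.13. The markers of leaf and flower matched the tissue labels. Over 15 genes of leaf photosynthesis the mean log2 CPM lay between 10.75 and 11.15 in the 6 libraries. The 8 listed root genes together reached only 0.370 to 1.77 CPM, with 3 at 0 in all 6 libraries. The 7 listed seed genes together reached at most 0.0738 CPM, also with 3 at 0. Genes of floral organ identity were read in every library. Their score was lowest in dyw2 heterozygous replicate 2, where the tapetum gene ACOS5 had 0 counts, as described below. In bulk tissue, fewer cells of a type and less RNA per cell cannot be told apart.

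Of 20224 genes tested with edgeR's quasi-likelihood test, 21 differed between the groups at a Benjamini-Hochberg adjusted p under 0.05, which is 0.104% of the genes. The level was higher in the dyw2 heterozygous libraries for 5 of them (0.0247%) and lower for 16 (0.0791%). An unadjusted p under 0.05 was reached by 1225 genes (6.06%). DESeq2, run on the same 20224 genes, called 110 higher (0.544%) and 70 lower (0.346%), with 20 of the 21 among them. The 6-library test rested on 4 residual degrees of freedom, and it called 0 genes when dyw2 heterozygous replicate 2 or 3, or nuwa heterozygous replicate 1 or 3, was left out, with 968, 1440, 779 and 1169 genes at an unadjusted p under 0.05. It called 9 genes without dyw2 heterozygous replicate 1 and 150 without nuwa heterozygous replicate 2.

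Neither inserted gene differed detectably between the groups. DYW2 (AT2G15690, chr2:6830995-6833777, minus strand, TAIR10.1) had 378, 301 and 404 counts in the dyw2 heterozygous libraries and 259, 350 and 369 in the nuwa heterozygous ones. These ranges overlap, and the log2 fold change of dyw2 over nuwa heterozygous was 0.17 ± 0.15 (SE, edgeR adjusted p = 0.904). NUWA (AT3G49240, chr3:18255961-18258203, plus strand) was read far less, with 83, 43 and 52 counts against 30, 24 and 52. Its log2 fold change was 0.75 ± 0.41 (edgeR adjusted p = 0.873). Within 1 Mb of DYW2, edgeR called 0 of 225 tested genes and DESeq2 called 2, and 16 had an unadjusted p under 0.05 (7.11%). Within 1 Mb of NUWA edgeR called 0 of 395 and DESeq2 called 3, and 22 had such a p (5.57%), so both neighbourhoods were near the 6.06% of all genes. Over all 20224 genes DESeq2 called 180.

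The 16 genes called lower in the dyw2 heterozygous libraries all lay side by side on chromosome 5, far from both inserted genes, which lie on chromosomes 2 and 3. They belong to a run of 28 consecutive tested genes, AT5G16230 to AT5G16520 (chr5:5302905-5397466, 94.562 kb). The run was defined as neighbours that each had a log2 fold change under -1, which 1.95% of all genes tested had. The median of the run was -1.53, a level 2.88-fold higher in the nuwa heterozygous libraries, and the middle 50% of its genes lay between 2.65-fold and 3.31-fold. In 27 of the 28 genes the groups did not overlap, beside 5.34% of all genes in that direction. The run has 14 genes on each strand, and 9 further gene models inside it were too low to test, with at most 31 counts over the 6 libraries. The run was chosen after its values were seen, by the limit of -1. Its fold changes and its lack of overlap follow in part from that choice.

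**Figure D1:**
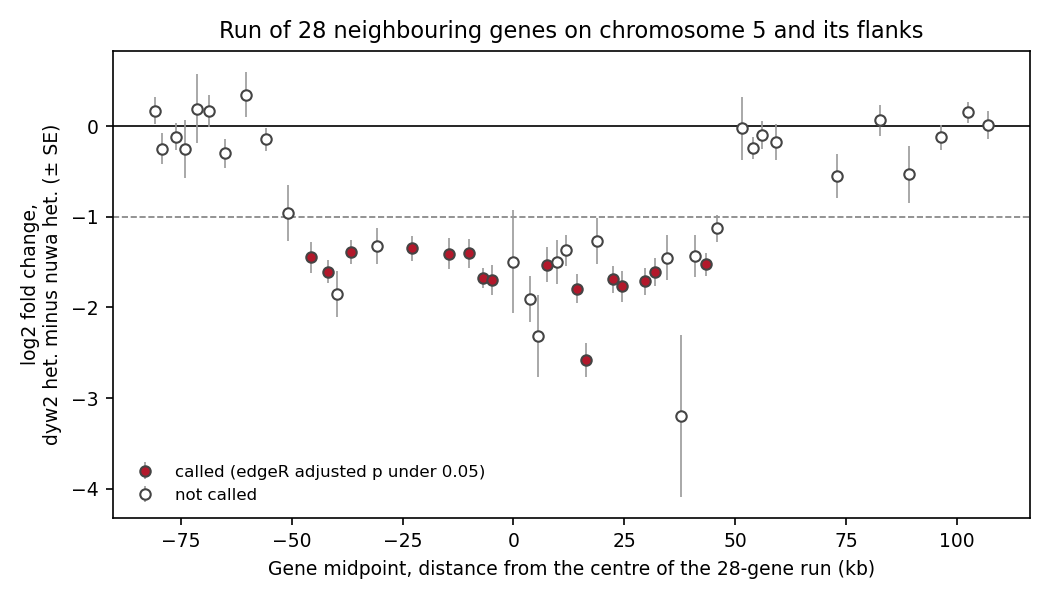
The log2 fold change of dyw2 over nuwa heterozygous libraries (vertical axis, with its SE) is drawn for each tested gene against the distance of its midpoint from the centre of the chromosome 5 run in kb. All 28 genes of the run lie below the dashed line at -1, the 16 called ones are filled, and the 10 tested genes on either side lie between -0.96 and 0.35.

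The ends of the run were set by the limit of -1, and a difference in shape between them was not tested. The 20 flanking tested genes, 10 on each side, had a median log2 fold change of -0.12. Just outside its left end, AT5G16220 stood at -0.96 ± 0.31 without overlap between the groups (unadjusted p = 0.0146, edgeR adjusted p = 0.682), close to the limit of -1 that defined the run. The next gene outward, AT5G16210, had -0.15 ± 0.12. Just inside stood AT5G16230, a stearoyl-acyl carrier protein desaturase family gene, at -1.45 ± 0.17 (edgeR adjusted p = 0.0375). At the right end AT5G16520 had -1.13 ± 0.15 (edgeR adjusted p = 0.0593), and its neighbour PIN5, which encodes an auxin carrier of the endoplasmic reticulum, -0.03 ± 0.35. The next longest series of neighbours past a log2 fold change of 1 held 5 genes (AT5G22520 to AT5G22570), all higher in dyw2 heterozygous libraries, where 1.24% of all genes lay over 1.

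TRXF2 (AT5G16400, chr5:5363420-5365391, minus strand) encodes thioredoxin f2, which activates enzymes of the Calvin cycle in the light. Its level was 28.8, 40.4 and 33.5 CPM in the dyw2 heterozygous libraries and 115, 118 and 124 CPM in the nuwa heterozygous ones. The groups were far apart beside the spread within each, with a log2 fold change of -1.80 ± 0.16 (edgeR adjusted p = 0.0112). AT5G16470, a C2H2 zinc finger gene, stood at 38.4, 41.8 and 39.0 CPM against 124, 152 and 115 CPM. It too had no overlap, and its log2 fold change was -1.71 ± 0.15 (edgeR adjusted p = 0.0112). UCH1, a ubiquitin carboxyl-terminal hydrolase, was even within both groups, with 3.58, 3.85 and 3.86 CPM against 12.1, 12.5 and 11.6 CPM (log2 fold change -1.68 ± 0.11, edgeR adjusted p = 0.0090).

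The largest called difference of the run was in AT5G16410, an HXXXD-type acyl-transferase family gene, with 0.731, 0.826 and 0.582 CPM against 3.92, 4.50 and 4.37 CPM. This is a log2 fold change of -2.58 ± 0.18 (edgeR adjusted p = 0.0090), a 5.98-fold higher level in the nuwa heterozygous libraries. Several called genes encode metabolic enzymes. IPP1, an isomerase of isoprenoid precursors, stood at 11.7, 11.2 and 12.1 CPM against 38.6, 43.3 and 31.2 CPM. AT5G16240, another stearoyl-acyl carrier protein desaturase family gene, stood at 10.6, 9.96 and 10.6 CPM against 31.1, 29.2 and 34.7 CPM. The acyl activating enzyme gene AAE5 and the reversibly glycosylated protein gene RGP5 had log2 fold changes of -1.53 ± 0.19 and -1.52 ± 0.13. VAT1, named for the valine tolerance of its mutant, had -1.41 ± 0.17.

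Genes of regulation were called as well. FRL1, a relative of the flowering time gene FRIGIDA, stood at 2.79, 3.22 and 3.35 CPM against 9.32, 12.2 and 8.83 CPM, without overlap. ELF9, an RNA-binding protein gene of flowering time, had a log2 fold change of -1.39 ± 0.13. The protein phosphatase gene PFA-DSP5 had -1.61 ± 0.16, and AT5G16450, of the ribonuclease E inhibitor family, -1.77 ± 0.17. The other called genes were AT5G16280 and AT5G16300, at -1.35 ± 0.14 and -1.40 ± 0.16. Of the 12 members that were not called, CAC1, which encodes the biotin carrier subunit of plastid acetyl-CoA carboxylase, missed the threshold narrowly at -1.37 ± 0.17 (edgeR adjusted p = 0.0533). The cohesin subunit gene SYN4 had -1.32 ± 0.20 (edgeR adjusted p = 0.119). The lowest value of the run, -3.20 ± 0.89 in AT5G16500, came with the widest error and was not called.

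The level of the run was even within each heterozygous group. Against the mean of the dyw2 heterozygous libraries, the median level of the 28 genes was 1.04-fold, 0.997-fold and 0.943-fold in those libraries themselves. It was 2.96-fold, 2.97-fold and 3.00-fold in nuwa heterozygous replicates 1, 2 and 3. In the nuwa homozygous libraries it was 2.48-fold, 2.90-fold and 2.85-fold, with 24, 25 and 27 of the 28 genes above all 3 dyw2 heterozygous libraries. The dyw2 homozygous libraries had 1.22-fold, 1.199-fold and 1.12-fold, with 17, 15 and 15 of the 28 genes above all 3 dyw2 heterozygous libraries. Their genes scattered widely, with quartiles of -1.25 and 0.85 on the log2 scale in replicate 1. On that scale the flanking genes had medians of -0.52, -0.37 and -0.42 there, below the run's own 0.29, 0.26 and 0.16. Among the homozygous libraries the genotype field of dyw2 replicate 2 and of nuwa replicate 3 names the other mutant, and both lay with the group of their title. For all 6-library fits in which a library was left out, the 28 genes still had log2 fold changes under -1, with medians between -1.52 and -1.64, although the number called ranged from 0 to 22. These fits reuse libraries in which the run was chosen by that limit, so they are no independent check of it. With a score of flower genes as covariate all 28 stayed under -1, with a median of -1.57 and 10 called, and DESeq2 called 26 of the 28 lower. Left out of the model over all 4 groups, the same libraries left 13 to 22 genes of the run called lower.

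**Figure D2:**
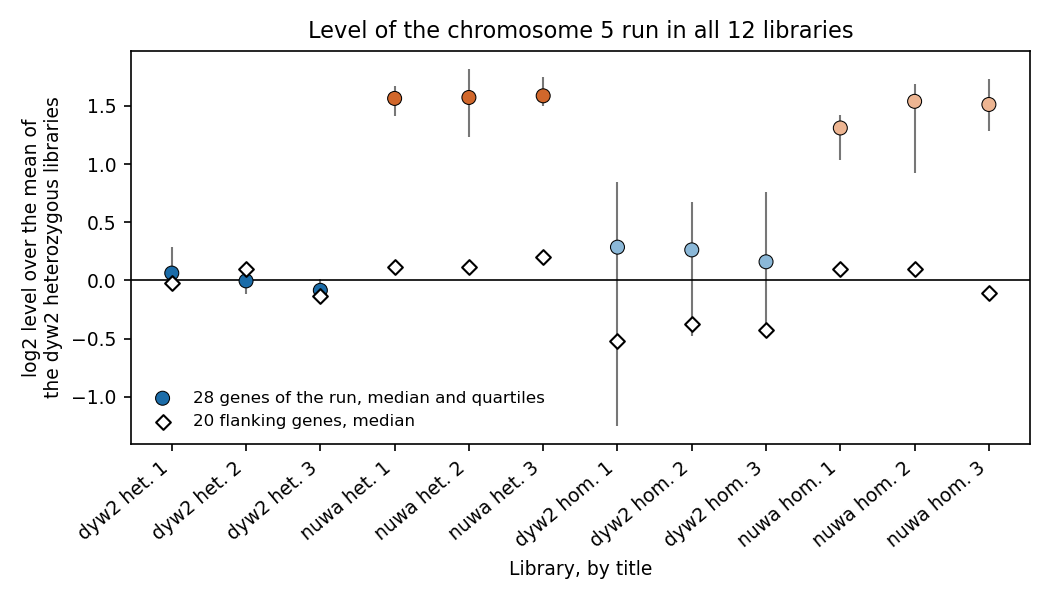
For each of the 12 libraries, by title, a filled circle gives the median log2 level of the 28 genes of the chromosome 5 run over the mean of the dyw2 heterozygous libraries, with quartiles as bars, and a diamond gives the median of the 20 flanking genes. All 6 nuwa libraries lie at 1.31 or above, all 6 dyw2 libraries at 0.29 or below, and the flanking genes lie between -0.13 and 0.20 in the heterozygous and between -0.52 and -0.37 in the dyw2 homozygous libraries.

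The 5 genes called higher in the dyw2 heterozygous libraries lay on chromosomes 1, 2 and 4, apart from each other. NET2B (AT1G09720, chr1:3144438-3147303, minus strand), a member of the NETWORKED family of actin-binding proteins, had 97, 79 and 50 counts in them and 1, 0 and 0 in the nuwa heterozygous libraries. The groups were separated by almost the whole signal, and the pooled ratio was 231 with an exact 95% counting interval of 41.1 to 9181 (edgeR adjusted p = 0.0147). The same split held among the homozygous libraries, with 159, 223 and 157 counts in dyw2 and 0, 0 and 2 in nuwa. The dyw2 homozygous libraries were shallower, with 13329334 to 24632485 counts in all. Scaled over all 12 libraries (prior count 2), NET2B stood at 5.39, 4.45 and 4.81 CPM in them. In the dyw2 heterozygous libraries it stood at 1.86, 1.51 and 0.867 CPM on that scale. Counting intervals hold no spread between libraries.

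MUG2 (AT2G30640, chr2:13049509-13051773, minus strand) is a MUSTANG gene, a plant gene derived from a transposase. It had 59, 71 and 85 counts against 4, 9 and 5, a log2 fold change of 3.60 ± 0.32 (edgeR adjusted p = 0.0112). Its homozygous libraries split the same way, at 50, 78 and 38 counts in dyw2 and 0, 3 and 5 in nuwa. AT4G22580 (chr4:11889098-11890808, minus strand), an exostosin family gene, had 410, 524 and 482 counts against 103, 163 and 138. It was the tightest of the 5, at 5.997, 7.73 and 6.38 CPM against 1.81, 1.89 and 1.87 CPM, with a log2 fold change of 1.85 ± 0.15 (edgeR adjusted p = 0.0102). Scaled over all 12 libraries, its homozygous libraries split the same way, at 6.77, 7.09 and 5.81 CPM in dyw2 and 2.75, 2.62 and 2.92 CPM in nuwa (prior count 2).

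LOX4 (AT1G72520, chr1:27308513-27312756, plus strand) encodes a lipoxygenase of the jasmonate pathway, which makes the wound hormone from plastid lipids. Its level was 8.50, 9.78 and 7.32 CPM in the dyw2 heterozygous libraries and 1.62, 1.96 and 2.62 CPM in the nuwa heterozygous ones. The lowest dyw2 value was well above the highest nuwa value, and the log2 fold change was 2.04 ± 0.21 (edgeR adjusted p = 0.0154). On the same 12-library scale the homozygous libraries had 10.2, 8.08 and 7.96 CPM in dyw2 and 1.97, 3.43 and 5.16 CPM in nuwa, also without overlap. RRTF1 (AT4G34410, chr4:16451876-16453260, plus strand), a redox-responsive transcription factor of the AP2/ERF family, had 20, 29 and 31 counts against 0, 1 and 0. The pooled ratio was 81.9, with an exact 95% counting interval of 14.3 to 3276 (edgeR adjusted p = 0.0375). Unlike the other 4 genes, RRTF1 was nearly silent in all 6 homozygous libraries, at 1, 0 and 1 counts in dyw2 and 0, 0 and 1 in nuwa. On the 12-library scale it stood at 0.0760, 0.0424 and 0.0727 CPM in the shallower dyw2 homozygous libraries. The dyw2 heterozygous ones had 0.417, 0.579 and 0.553 CPM.

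**Figure D3:**
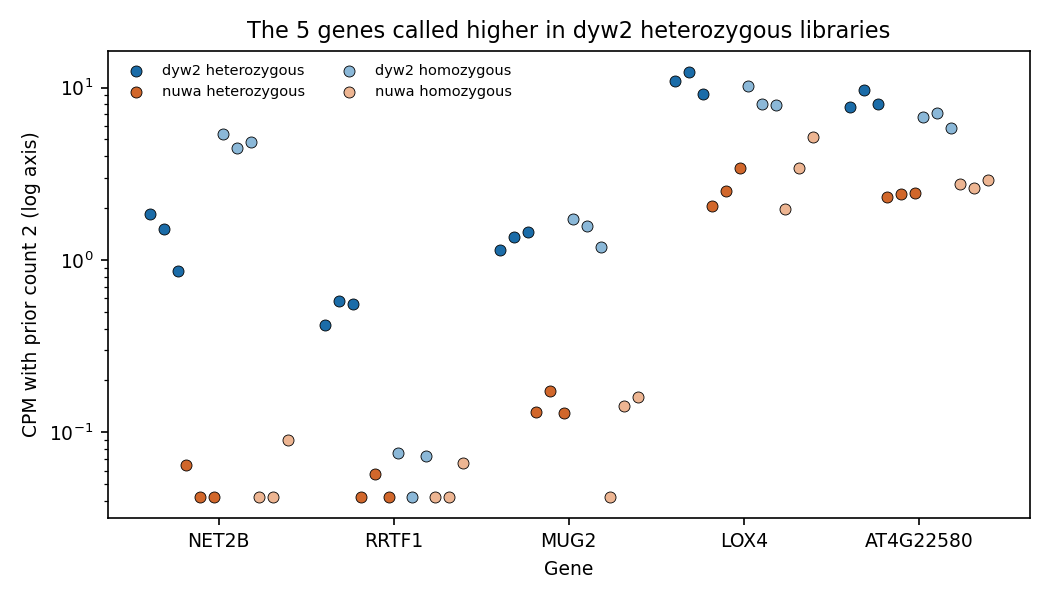
CPM with a prior count of 2, scaled over all 12 libraries and so not equal to the 6-library CPM of the text (log axis), of the 5 genes called higher in dyw2 heterozygous libraries is shown for every library, coloured by the 4 groups. NET2B, MUG2, LOX4 and AT4G22580 are higher in all 6 dyw2 libraries, heterozygous and homozygous, than in all 6 nuwa libraries, whereas RRTF1 is high in the 3 dyw2 heterozygous libraries alone; points on the lowest line have 0 counts.

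RRTF1 belongs with genes that respond within minutes to touch, wounding or oxidants. The promoters of RRTF1, LOX4 and the rapid-stress gene WRKY40 are shown because all 3 genes had higher values in the 3 dyw2 heterozygous libraries than in the 3 nuwa heterozygous ones, each as the 250 bases before the annotated start. They were read from the TAIR10.1 genome, plus strand, at chr4:16451626-16451875 for RRTF1, chr1:27308263-27308512 for LOX4 and chr1:30383311-30383560 for WRKY40. Capitals mark the W-box core, TTGAC or GTCAA on the other strand, which WRKY factors bind, and the core CGCGT or ACGCG, bound by calmodulin-binding transcription activators.
RRTF1: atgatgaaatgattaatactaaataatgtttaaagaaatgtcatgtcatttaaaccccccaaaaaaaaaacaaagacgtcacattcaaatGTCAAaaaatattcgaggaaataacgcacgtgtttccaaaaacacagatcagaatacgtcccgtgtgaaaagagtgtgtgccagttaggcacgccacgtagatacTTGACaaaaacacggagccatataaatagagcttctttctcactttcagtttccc
LOX4: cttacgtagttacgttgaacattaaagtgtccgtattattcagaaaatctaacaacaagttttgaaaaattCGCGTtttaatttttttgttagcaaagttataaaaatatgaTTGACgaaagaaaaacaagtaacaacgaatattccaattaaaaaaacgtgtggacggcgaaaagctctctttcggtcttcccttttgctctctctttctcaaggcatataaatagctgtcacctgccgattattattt
WRKY40: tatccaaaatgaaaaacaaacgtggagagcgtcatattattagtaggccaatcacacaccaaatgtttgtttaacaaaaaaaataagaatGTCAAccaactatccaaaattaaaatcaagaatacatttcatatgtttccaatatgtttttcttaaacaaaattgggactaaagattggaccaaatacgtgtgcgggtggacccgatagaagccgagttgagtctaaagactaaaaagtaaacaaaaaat
The RRTF1 window holds 2 W-box cores and LOX4 and WRKY40 hold 1 each. LOX4 also holds 1 of the other core. A W-box core occurs in 44.95% of 26711 promoter windows of this length and in 8 of the 12 listed touch and rapid stress genes, and the other core in 6.90% and in 2 of 12. These matches are a description of letters in the window.

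All 12 tested genes of the touch and rapid stress list had a higher mean in the dyw2 heterozygous libraries, and edgeR called 0 of them. The mean log2 CPM of the list was 2.66, 3.73 and 2.65 in the dyw2 heterozygous libraries and 1.26, 2.32 and 1.04 in the nuwa heterozygous ones. It was the only list of 22 whose score did not overlap, and its highest value was in dyw2 heterozygous replicate 2. The median log2 fold change was 1.47, beside -0.01 over all genes tested. In 8 of the 12 genes the groups did not overlap, beside 5.8% of all genes in that direction, and 9 had an unadjusted p under 0.05, beside 3.68%. DESeq2 called 6 of the 12 higher, beside 0.544% of all genes. EdgeR without nuwa heterozygous replicate 2 called 1 higher, RHL41, beside 0.622%. With the replicate number added to the edgeR model as a block, 5 of the 12 were called higher, beside 12 of all 20224 genes. Whether the numbers pair the libraries is not known. Without dyw2 heterozygous replicate 2, in which flower genes were lowest, the median was 1.01, in a fit that called 0 genes of any kind. The part of flower tissue in these values was not tested.

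WRKY40, a transcription factor induced by elicitors and wounding, stood at 9.73, 22.2 and 7.50 CPM against 1.92, 3.75 and 1.17 CPM. The lowest dyw2 value was 7.50 and the highest nuwa value 3.75, but the spread within dyw2 was wide, and the log2 fold change of 2.52 ± 0.53 had an edgeR adjusted p of 0.425. STZ, the zinc finger repressor also known as ZAT10, stood at 8.54, 23.47 and 8.98 CPM against 1.97, 5.51 and 1.87 CPM (log2 fold change 2.12 ± 0.54, edgeR adjusted p = 0.526). WRKY33, a factor of camalexin synthesis, stood at 21.3, 47.4 and 20.0 CPM against 8.30, 14.1 and 8.45 CPM. The calmodulin-like gene TCH2 stood at 12.4, 19.9 and 10.9 CPM against 7.68, 7.48 and 7.34 CPM. In all of these genes dyw2 heterozygous replicate 2 was highest. A mitochondrial carrier gene, DIC2, from the list of mitochondrial stress responses, showed the same order with 5.13, 16.6 and 3.92 CPM against 1.18, 1.79 and 1.53 CPM (log2 fold change 2.50 ± 0.54, edgeR adjusted p = 0.425). That list had 10 tested members, of which edgeR called 0 and DESeq2 called 2, both higher, beside 0.544% of all genes. An unadjusted p under 0.05 was reached by 3, all higher in dyw2, beside 3.68% of all genes. AOX1A, the alternative oxidase that marks mitochondrial dysfunction, stood at 0.03 ± 0.18.

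Of 14 jasmonate genes, edgeR called LOX4 alone, beside 0.0247% of all genes higher. DESeq2 called 2, both higher, beside 0.544%. An unadjusted p under 0.05 was reached by 4, all higher in the dyw2 heterozygous libraries, beside 3.68% of all genes. In that direction 2 did not overlap, beside 5.8%. The median log2 fold change was 0.25, and the list score overlapped between the groups. LOX3, a second lipoxygenase of the pathway, stood at 7.15, 7.39 and 8.28 CPM against 2.99, 2.59 and 4.34 CPM, without overlap (log2 fold change 1.203 ± 0.202, edgeR adjusted p = 0.230). The allene oxide synthase gene AOS, which acts on the lipoxygenase product, stood at 51.7, 71.4 and 103 CPM against 94.8, 61.8 and 81.7 CPM, with full overlap. The vegetative storage protein gene VSP1, a late jasmonate target, was set by 1 library, at 114, 8.10 and 149 CPM against 104, 123 and 114 CPM. BGLU18, a beta-glucosidase that releases abscisic acid, had the same low value in dyw2 heterozygous replicate 2, 23.9 CPM beside 117 to 163 CPM in the other libraries.

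For defence genes of the salicylate pathway, the list score was alike in 4 of the libraries. It was 3.67, 3.57 and 3.48 in the dyw2 heterozygous libraries and 2.12, 3.55 and 2.20 in the nuwa heterozygous ones, so the score of nuwa heterozygous replicate 2 lay within the dyw2 range. In 14 of 15 genes the dyw2 mean was higher, with a median log2 fold change of 0.78. EdgeR called 0 of them and DESeq2 called 3, all higher, beside 0.544% of all genes. An unadjusted p under 0.05 was reached by 6, beside 3.68% of all genes in that direction. Single members were less alike, and 5 of 15 did not overlap, with the dyw2 libraries above all 3 nuwa libraries, beside 5.8% of all genes. The glucanase gene BGL2 (PR2) stood at 74.6, 18.4 and 37.5 CPM against 4.75, 49.2 and 6.95 CPM, with overlap. PR1, the marker of salicylate-dependent resistance, stood at 49.0, 31.8 and 59.9 CPM against 11.7, 54.9 and 14.0 CPM. EDS1, a regulator upstream of salicylate, stood at 20.5, 21.6 and 16.7 CPM against 11.7, 13.6 and 8.98 CPM, without overlap but not called (log2 fold change 0.78 ± 0.18, edgeR adjusted p = 0.466).

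Leaving out nuwa heterozygous replicate 2 raised the calls from 5 higher and 16 lower to 128 higher (0.622%) and 22 lower (0.107%) of 20578 genes. Of the 128, 123 were not called with all 6 libraries. For these 123, replicate 2 lay within the range of the dyw2 libraries in 36 genes, above it in 23 and below it in 64. They were sorted by that fit, and the examples below were named after their values were seen. FMO1, an oxidase that makes the systemic signal N-hydroxypipecolic acid, stood at 0.936, 0.826 and 0.913 CPM against 0.0527, 1.40 and 0.0136 CPM. UGT76B1, a glucosyltransferase of defence signals, stood at 6.04, 8.07 and 6.96 CPM against 0.510, 4.76 and 0.624 CPM. ALD1, an aminotransferase upstream of FMO1, stood at 2.30, 2.48 and 1.87 CPM against 0.211, 1.85 and 0.176 CPM. In all 3 genes nuwa heterozygous replicates 1 and 3 were low and the other 4 libraries were high. Of the gene lists, salicylate and defence then had 6 members called higher, mitochondrial stress 3 (BCS1, NDB2 and CYP81D8), touch and rapid stress 1 (RHL41) and jasmonate 1 (LOX4).

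**Figure D4:**
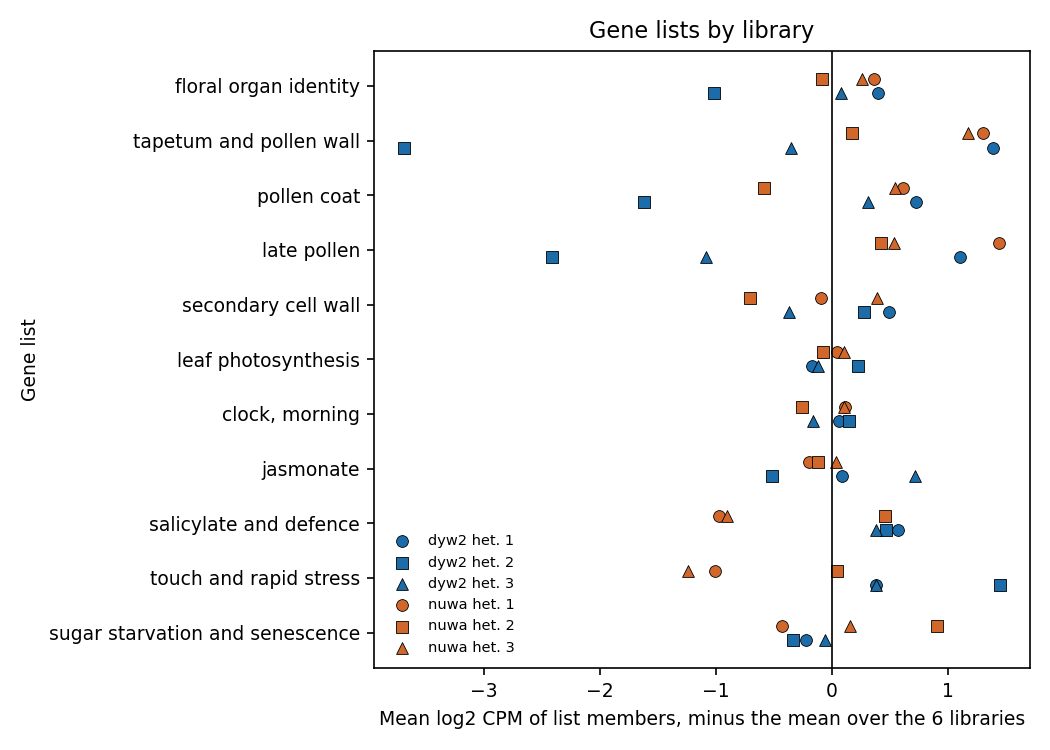
For 11 gene lists, the mean log2 CPM of the tested members in each of the 6 heterozygous libraries is drawn as the difference from the mean of the 6, with colour for the group and the marker shape for the replicate. Flower lists are lowest in dyw2 replicate 2, defence is low in nuwa replicates 1 and 3, and touch and rapid stress is the list whose groups do not overlap.

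Flower genes varied widely from library to library. The list of floral organ identity had a mean log2 CPM of 1.99, 0.58 and 1.68 in the dyw2 heterozygous libraries and 1.96, 1.51 and 1.86 in the nuwa heterozygous ones. For tapetum and pollen wall, the cell layer and coat that form in young anthers, the values were 1.75, -3.33 and 0.01 against 1.66, 0.53 and 1.54. The pollen coat list gave 3.24, 0.89 and 2.82 against 3.13, 1.93 and 3.05, and the late pollen list 1.08, -2.44 and -1.11 against 1.41, 0.40 and 0.51. Each of the 4 lists was lowest in dyw2 heterozygous replicate 2. The dyw2 mean was lower in 12 of 13 floral identity genes (median log2 fold change -0.24), 11 of 11 of the tapetum (-0.67), 7 of 10 of the pollen coat (-0.14) and 6 of 6 of late pollen (-0.87). Without that library the medians were 0.11, -0.15, 0.27 and -0.34. Of these genes edgeR called 0, DESeq2 called 0, and only the late pollen gene AT59 had an unadjusted p under 0.05.

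AP3, which specifies petals and stamens, stood at 10.7, 2.48 and 9.18 CPM against 10.8, 7.98 and 10.3 CPM. ACOS5, an acyl-CoA synthetase of sporopollenin formation in the tapetum, had the largest SD of the 13477 nuclear genes at a mean log2 CPM of at least 1. It stood at 8.91, 0 and 2.49 CPM against 8.23, 3.68 and 8.42 CPM. The ovary and nectary gene CRC stood at 1.21, 0.133 and 0.847 CPM against 0.791, 0.627 and 0.895 CPM. The secondary wall list was lowest in nuwa heterozygous replicate 2, at -0.41, with the others between -0.08 and 0.79. The lignin laccase gene LAC17 stood at 6.19, 6.45 and 3.02 CPM against 2.95, 1.38 and 6.76 CPM, and 0 of 14 tested members were called by edgeR or DESeq2 or had an unadjusted p under 0.05.

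Most genes varied little. The SD of log2 CPM over the 6 libraries had a median of 0.24, against 0.23 within the dyw2 and 0.21 within the nuwa heterozygous group, and 84.3% of genes had an SD under 0.5. An SD over 1 was reached by 778 genes (3.85%), of which 7 were called. In 423 of the 778 (54.4%) the library farthest from the median was dyw2 heterozygous replicate 2, which was low in 402. Next came nuwa heterozygous replicate 1 with 142 genes, and nuwa heterozygous replicate 2 with 76, of which it was high in 66. Over all tested genes, without regard to size, dyw2 heterozygous replicate 1 was farthest most often, in 27.0%.

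**Figure D5:**
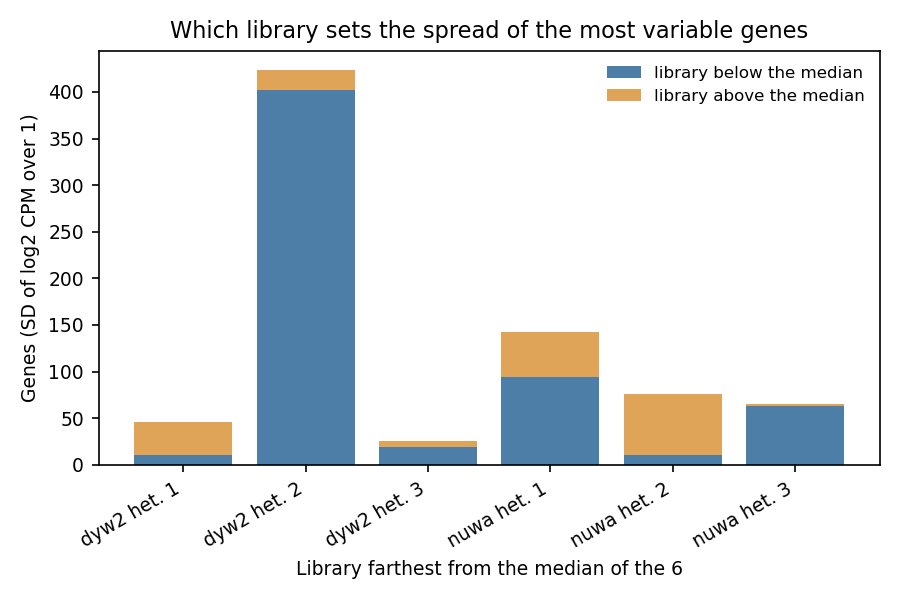
Bars start at 0 and count, among the 778 genes with an SD of log2 CPM over 1, those in which each library is the farthest from the median of the 6, split by whether it is below or above. The bar of dyw2 heterozygous replicate 2 holds 423 genes, 402 of them below the median.

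Of the 12 most variable nuclear genes at a mean log2 CPM of at least 1, 10 were lowest in dyw2 heterozygous replicate 2. They include AT3G11980, a fatty acyl reductase gene of the pollen wall (7.99, 0 and 3.60 CPM against 9.65, 2.37 and 7.56 CPM), and the spermidine methyltransferase gene TSM1 of the tapetum. The other 2 were UGT76B1 and AT4G10500, an oxygenase family gene. Among the 1592 nuclear genes at a mean log2 CPM of at least 5, 3 of the 8 most variable had nuwa heterozygous replicates 1 and 3 below the other 4 libraries. PCR1, a cadmium resistance protein gene, stood at 152, 114 and 172 CPM against 37.4, 157 and 25.8 CPM. The glutathione transferase genes GSTF2 and GSTF7 were both highest in nuwa heterozygous replicate 2, at 269 and 62.3 CPM. AT2G31141 and AT2G35750, both uncharacterized, were highest in nuwa heterozygous replicate 1. AT2G31141 stood at 156, 98.1 and 161 CPM against 760, 351 and 287 CPM, without overlap (log2 fold change -1.75 ± 0.39, edgeR adjusted p = 0.440).

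List scores of the morning clock and of editing factors spanned little. The morning clock list ranged from 4.94 to 5.34 in mean log2 CPM over the 6 libraries. Its members varied more, and LHY, its core transcription factor, varied most, at 101, 83.6 and 56.1 CPM against 71.0, 46.9 and 60.2 CPM. For 17 tested organelle editing factors the list score ranged from 0.977 to 1.198. The plastid factor MORF9 stood at 32.2, 41.7 and 38.9 CPM against 39.6, 38.3 and 34.2 CPM. Of these 17 genes edgeR and DESeq2 called 0, and 1 (CRR21, an editing factor of a plastid transcript) had an unadjusted p under 0.05. Sugar starvation and senescence genes were highest in nuwa heterozygous replicate 2, with a list score of 3.96 beside 2.62 to 3.21 in the others. The senescence factor NAC6 stood there at 21.9 CPM, beside 2.80 to 10.9 CPM. EdgeR called 0 of the 8 tested members and DESeq2 called 1. An unadjusted p under 0.05 was reached by 3, all lower in dyw2, beside 2.37% of all genes.

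The remaining lists had 0 members called by edgeR. Heat shock genes all had a higher dyw2 mean (6 of 6, median log2 fold change 0.91), with 2 at an unadjusted p under 0.05, beside 3.68% of all genes. DESeq2 called 0 of the 6 and gave 3 of them no adjusted p. Of 12 tested cold and drought genes, 8 had a lower dyw2 mean (median log2 fold change -0.22). An unadjusted p under 0.05 was reached by 1 higher and 1 lower gene, beside 3.68% and 2.37% of all genes. The higher one, the cold-response factor CBF2, stood at 0.921, 2.85 and 0.675 CPM against 0.176, 0.499 and 0.285 CPM, without overlap (edgeR adjusted p = 0.597). Of 10 flowering time genes, 9 had a lower dyw2 mean, with 0 at an unadjusted p under 0.05. FT, the mobile flowering signal, stood at 0.951, 1.84 and 0.992 CPM against 3.90, 1.22 and 2.36 CPM, with overlap. The glucosinolate, flavonoid, auxin, cell cycle and evening clock lists had 0 members at an unadjusted p under 0.05. Of 13 tested metal and phosphate supply genes 3 had such a p, 1 higher and 2 lower in dyw2, beside 3.68% and 2.37% of all genes. DESeq2 called 1 gene in the cold and drought list and 0 in the others named here.

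Plastid genes without rRNA and tRNA took 61.1% ± 3.49 of counts in the dyw2 and 62.8% ± 1.98 in the nuwa heterozygous libraries (SD, n = 3), and the difference was within the spread (exact two-sided permutation test, p = 0.6, smallest possible 0.1). The plastid gene ATCG00020 alone took 37.6% to 48.5% of all counts. Mitochondrial genes took 0.345% ± 0.0347 and 0.325% ± 0.0192 (SD, n = 3; exact two-sided permutation test, p = 0.5). Of 98 plastid and 65 mitochondrial genes tested edgeR called 0, and DESeq2 called 1 and 0. An unadjusted p under 0.05 was reached by 4 and 1, all lower in dyw2, beside 2.37% of all genes. In 8 of the 98 plastid genes the groups did not overlap, all lower in dyw2, beside 5.34%. The mean log2 CPM of the 65 mitochondrial genes ranged from 2.085 to 2.106 in the dyw2 and from 2.111 to 2.203 in the nuwa heterozygous libraries, narrowly without overlap. Of these genes 42 had a lower dyw2 mean. In that direction 8 did not overlap, beside 5.34% of all genes, and in the other 4, beside 5.8%. The most variable plastid gene longer than a tRNA, ATCG00700, stood at 443, 464 and 639 CPM against 1155, 1361 and 986.5 CPM. Its groups did not overlap, and the log2 fold change was -1.18 ± 0.21 (edgeR adjusted p = 0.255).

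Short nuclear RNAs leaned the same way. All 10 tested snRNA genes, which encode the RNA of the spliceosome, had a lower dyw2 mean, with a median log2 fold change of -1.49. Their mean log2 CPM was 3.48, 3.41 and 3.80 in the dyw2 heterozygous libraries and 5.74, 4.54 and 4.14 in the nuwa heterozygous ones, highest in nuwa replicate 1. In 9 of 10 the groups did not overlap, beside 5.34% of all genes in that direction. EdgeR called 0 of them and DESeq2 called 6, all lower, beside 0.346% of all genes. An unadjusted p under 0.05 was reached by 9, all lower, beside 2.37%. Among 57 snoRNA genes, which guide the modification of rRNA, 47 had a lower dyw2 mean, with a median log2 fold change of -0.32. EdgeR called 0 of the snoRNA genes and DESeq2 called 3, all lower, beside 0.346% of all genes. An unadjusted p under 0.05 was reached by 14, all lower in dyw2, beside 2.37% of all genes. Near-identical snRNA copies lose reads that align equally well, so single copies are uncertain.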

How the data were processed

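Total RNA of 12 samples was sequenced with a stranded total-RNA kit after ribosomal depletion, per the labels' protocols. The files hold raw counts for each gene model, as deposited by the authors. TopHat2, Bowtie2 and the TAIR10 build are named in the submitters' processing notes. Per the file headers, reads whose best alignments tied in score were dropped (2.54% to 3.17% of mapped reads in the 6 libraries), which lowers genes with identical copies. No source used here states whether strand entered the counting, and overlapping genes were not separated. Total counts were 54220595, 73060217 and 74179923 in the dyw2 heterozygous libraries and 59478718, 97804029 and 74177950 in the nuwa heterozygous ones. No pair of libraries agreed within sampling noise (chi-square per degree of freedom at least 34.2).

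Groups came from the titles. The 6 heterozygous libraries were fitted with edgeR 4.0.16 (R 4.3.3) by the quasi-likelihood F-test, with TMM scaling, filterByExpr (minimum count 10, minimum total 15) and Benjamini-Hochberg adjustment over 20224 genes. The threshold for a call was an adjusted p under 0.05. Log2 fold changes are dyw2 over nuwa heterozygous. CPM are edgeR's scaled counts with TMM factors, log2 CPM has a prior count of 2, and the summed CPM of the root and seed lists have no TMM factor. DESeq2 1.42.0, other filters and scalings, a flower score as covariate, thinning to one depth, the model over all 4 groups and leaving out each library were alternatives. On counts simulated for this comparison (20036 genes) the edgeR step recovered 67% of genes changed 2-fold and 98% of those changed 4-fold, and 5 of 170 calls were false. The simulated spread followed only the trend over expression level, without gene-specific spread or an outlying library. Changes were placed only in genes well above the filter, so recovery in the real libraries can be lower.

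Names and positions came from the TAIR10.1 annotation, which matched 32835 of 33602 gene models. Organelle genes were not paired with names there and are given by their identifiers. List entries matched in 284 of 294 cases, and 22 of 24 lists had at least 3 tested members. Genes named in the text are DYW2 and NUWA, called genes (up to 10 a direction of at least log2 CPM 1 without overlap, or all where fewer), the 12 and 8 most variable nuclear genes at a mean log2 CPM of at least 1 and 5, up to 3 called or 2 most variable members of each list, and the most variable organelle genes. Other names, among them uncalled genes of the chromosome 5 run, its 6 remaining called genes and further list members, were chosen after their values were seen. The members and lists were chosen with earlier results of these data known. Shares of organelle counts were compared by exact permutation tests (scipy 1.17.1). Counting intervals cover counting error only.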

Additional observations from a re-analysis of the deposited data

How the results depend on the processing

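No called gene changed direction in any of 459 refits of the 21 called genes, of which 140 lost the adjusted threshold. These refits reuse the libraries in which the 21 genes were called, so the unchanged direction is no independent check. The count of called genes, 21, moved to 13 with the flower score as covariate and to 180 with DESeq2, and over the fits without 1 library it ran from 0 to 150 (0 to 128 higher, 0 to 22 lower). With all 4 groups in the model, leaving out 1 heterozygous library (chosen after seeing the data) gave 18 to 115 calls, 3 to 92 higher and 14 to 23 lower, and 14 to 21 of the 21 genes stayed called. Genes called higher, 5 in the report, were 8 in the 4-group model without the 2 disputed homozygous libraries, 8 with no filter, 2 with the stricter filter, 12 with the replicate block, 3 with the flower covariate, 3 after thinning and 110 with DESeq2. Genes called lower, 16 in the report, were 10 with the flower covariate and 70 with DESeq2. Deviations of same-numbered libraries from their group means correlated at 0.204, 0.112 and -0.304. With so few libraries these values do not decide whether the replicate numbers pair the libraries. The block called 26 genes, 17 of the 21 among them, and 5 of 12 touch and rapid stress genes higher where the report has 0, and left the organelle share differences at -1.73 and 0.0207 percentage points.

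The plastid share difference, -1.73 points, was 0.285 points without dyw2 heterozygous replicate 1 and 1.19 points without ATCG00020; without 1 library it ran from -2.82 to 0.285. Lists without overlap, 1 in the report, were 2 with DESeq2 size factors, 4 with the stricter filter and 1 to 6 without 1 library. Genes with an SD over 1 were 308 with the stricter filter. The causes were not tested. With 3 libraries a group the permutation tests could not go below 0.1.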
